A study of Homo sapiens with 6 samples.

Results

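The collagen chain genes were taken as the protein-coding rows of the deposited gene table whose symbol is COL, a type number, A and a chain number. There were 44 of them among 60623 genes. RNA had been measured in LX2, an established line of human hepatic stellate cells, here of WT genotype and kept in medium with 2% serum. The siNC group, transfected with a control siRNA, has 3 libraries and the siSHMT2 group, transfected with an siRNA against SHMT2, has 3. Both groups share the line, the medium and a transfection time of 36 h; the siRNA sequences were not used here. SHMT2 encodes the mitochondrial serine hydroxymethyltransferase, which makes glycine from serine. No label says that a group's libraries are separate cultures. Every p-value therefore measures the spread between libraries alone, which may be technical.

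A collagen is built from 3 polypeptide chains wound into a triple helix, with glycine repeated at regular places, and each chain has its own gene. Fibrillar collagens such as types I, III and V form the banded fibrils of scar tissue, type IV forms the sheet-like network of basement membranes, and type VI forms beaded filaments around cells. Hepatic stellate cells are the main source of fibrillar collagen in liver fibrosis, and LX2 is used as a model of them.

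Values are FPKM (fragments scaled to gene length in kilobases and to library size), from 14722344 to 15669139 recovered reads per library. SHMT2 itself was at 40.8, 56.3 and 45.1 FPKM in siNC and at 2.25, 2.10 and 2.42 in siSHMT2, a mean of 4.77% of that in siNC. In siNC replicate 2, 18723 genes had reads, against 20559 to 21136 in the others. Of 12 stellate and mesenchymal markers, 6 had a mean of at least 1 FPKM, led by vimentin (VIM, 823 ± 97.3 FPKM in siNC, SD, n = 3) and SPARC (176 ± 10.1). The smooth muscle actin ACTA2 did not exceed 0.985 FPKM in any library, DES did not exceed 0.232, and LRAT, which stores retinol as esters, was listed at 0. The summed level of the 12 lay between 1009 and 1197 in the siNC libraries and between 716 and 779 in the siSHMT2 libraries, without overlap, and VIM fell to 501 ± 27.0 (limma adjusted p = 0.0191; leaving out siNC replicate 3 gave 0.0509, and leaving out siSHMT2 replicate 1, 2 or 3 gave 0.0775, 0.0949 and 0.0878; the block gave 0.0745 and no filter 0.114). VIM carried most of this sum, so the sum follows VIM. Of the 6 tested markers, 1 was called lower, against 9.85% of all genes tested. For 3 of the 6, all siSHMT2 libraries lay below all siNC libraries, against 18.6%. TAGLN (means of 30.9 FPKM in siNC and 31.1 in siSHMT2), SPARC and PDGFRB overlapped between groups. The part of the lower VIM in the collagen results below was not tested. Summed in each library, 6 hepatocyte markers reached 0.299 to 1.35 FPKM and 5 endothelial markers 0.310 to 0.626, and 4 cholangiocyte markers 1.72 to 2.94, mainly KRT7. Of 6 leukocyte markers, CD14 alone accounted for most of a sum of 13.6 to 19.5, while PTPRC did not exceed 0.0133 and CD163 and CD3E were listed at 0.

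COL1A1 and the type VI chains COL6A2 and COL6A1 had the highest levels in LX2 cells. Of the 44 chains, 17 had a mean of at least 1 FPKM over the 6 libraries and were tested. They were 6 fibrillar chains, 3 of type IV, 3 of type VI, and COL12A1, COL8A1, COL18A1, COL13A1 and COL7A1. A further 18 chains had reads but lay below that level, and 9 had no read in any library. In siNC the highest levels per length were those of COL1A1 (221 ± 27.6 FPKM, SD, n = 3), COL6A2 (141 ± 38.4) and COL6A1 (84.9 ± 3.19). COL6A2 in siNC replicate 2 (181 FPKM) came near COL1A1 there (199), so the order of the first and second was not far beyond the spread between libraries. COL5A2 (22.9 ± 2.16), COL5A1 (18.5 ± 0.453), COL4A2 (16.98 ± 0.787) and COL18A1 (15.3 ± 2.38) followed. The rest of the tested chains had siNC means from 9.50 (COL6A3) down to 1.59 (COL27A1).

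The gene lengths in the table, which set FPKM, were 1.03 to 2.97 times as long as the GENCODE transcript with the longest coding sequence. Per length of that transcript, COL1A1, COL6A2 and COL6A1 were still the highest in siNC, in this order, while COL4A2 moved from the sixth to the fourth place. Levels are therefore compared between genes only roughly.

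**Figure D1:**
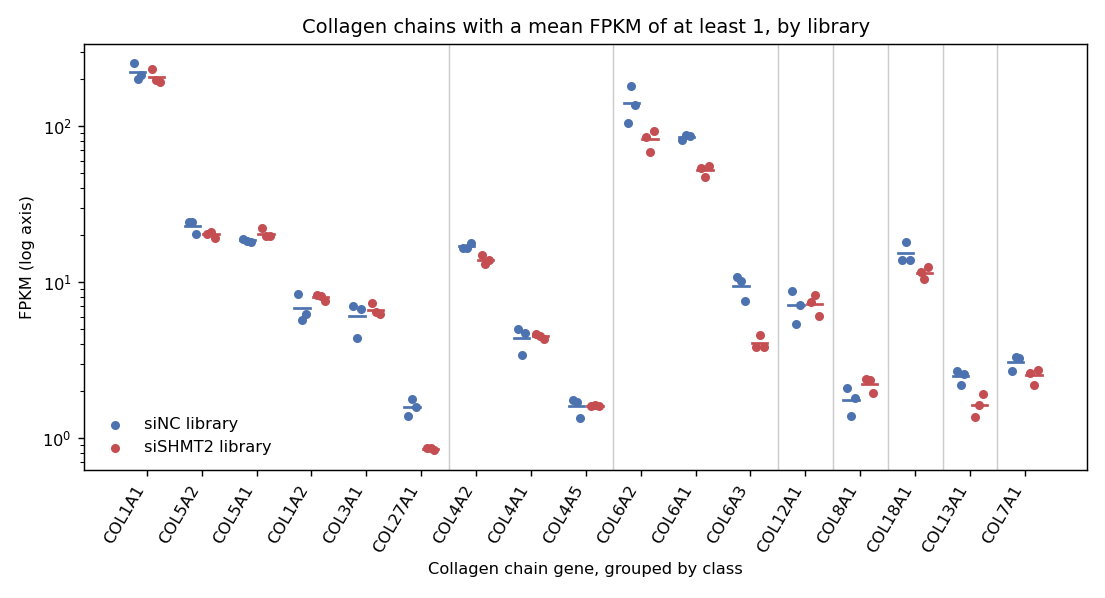
FPKM (log axis) of the 17 tested collagen chains in each siNC and siSHMT2 library, grouped by class between grey lines (fibrillar, type IV, type VI, then COL12A1, COL8A1, COL18A1, COL13A1 and COL7A1); points are libraries and dashes group means. The 3 type VI chains, COL27A1, COL4A2, COL18A1 and COL13A1 lie lower in every siSHMT2 library than in any siNC library. This held for 18.6% of all genes tested. COL5A1 lies higher in every siSHMT2 library, as did 17.9% of all genes tested. The other tested chains, COL1A1, COL1A2 and COL3A1 among them, overlap between groups.

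With siSHMT2, 3 of the 17 tested chains fell and 0 rose by limma (Benjamini-Hochberg adjusted p under 0.05 over 10865 genes; differences are on the log2(FPKM + 1) scale, which understates low genes). Those that fell were COL6A3, COL6A1 and COL27A1. Among all genes tested 9.85% were called lower and 6.07% higher, and the count of 3 of 17 (17.6%) is read against that. At an unadjusted p under 0.05, 7 of 17 chains were lower and 0 higher, against 16% and 14.2% of all genes tested. All 3 siSHMT2 libraries lay below all 3 siNC libraries for 7 of the 17 chains, against 18.6% of all genes tested, and above them for 1, against 17.9%. The median difference was -0.17 over the 17 chains and 0.02 over all genes tested. COL27A1 passed the level filter only through its siNC libraries, so these counts describe the chains and support nothing further. In bulk RNA, fewer cells expressing a chain and less of its RNA per cell cannot be told apart.

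**Figure D2:**
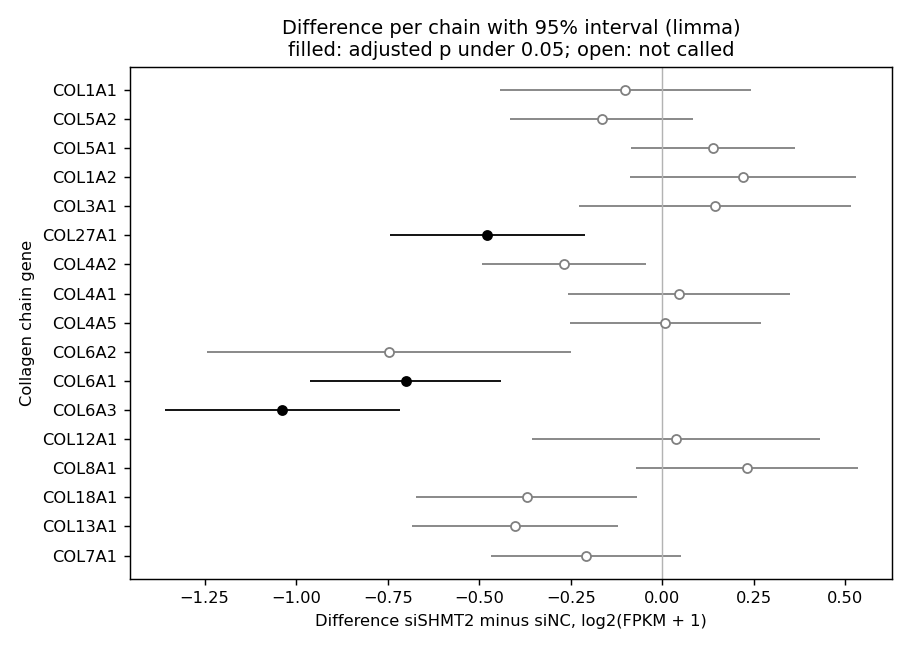
Difference between siSHMT2 and siNC (horizontal axis, log2(FPKM + 1)) for each tested chain, with its 95% interval from limma; filled points passed the adjusted threshold. COL6A3, COL6A1 and COL27A1 are filled, and the intervals of COL6A2, COL4A2, COL18A1 and COL13A1 also lie wholly below 0 although these chains missed the threshold.

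Type VI collagen is assembled from the products of COL6A1, COL6A2 and COL6A3, and it links cells to the surrounding matrix. All 3 genes were lower in every siSHMT2 library than in any siNC library, as were 18.6% of all genes tested. COL6A3 and COL6A1 passed the test, and 9.85% of all genes tested were called lower. COL6A3 (chromosome 2, 237324003 to 237414375, minus strand), whose chain is the longest of the 3 and carries most of the filament's globular domains, was at 10.8, 10.1 and 7.60 FPKM in siNC and at 3.83, 4.59 and 3.83 in siSHMT2. The groups did not overlap, and the siSHMT2 mean stood at 43.0% of siNC. COL6A3 fell by 1.04 on the log2 scale (SE 0.139, limma adjusted p = 0.00276), and it passed in each of 18 alternative fits.

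COL6A1 (chromosome 21, 45981737 to 46005050, plus strand) was at 81.4, 87.5 and 85.9 FPKM in siNC and at 53.6, 47.0 and 55.2 in siSHMT2. Its siNC libraries lay close together, and its siSHMT2 mean was 61.2% of theirs. COL6A1 fell by 0.70 (SE 0.113, limma adjusted p = 0.00597) and also passed in each of 18 alternative fits. COL6A2, its neighbour on the same strand (46098097 to 46132849), was at 105, 181 and 137 FPKM in siNC and at 85.6, 68.0 and 92.7 in siSHMT2. The siNC libraries of COL6A2 were spread most widely of the 3 chains, with replicate 2 highest. Its log2 difference of -0.75 (SE 0.215) had an interval from -1.24 to -0.25 and missed the threshold (limma adjusted p = 0.0534). COL6A2 passed in 7 of 18 alternative fits, among them TPM and voom on recovered reads. Among the fits in which it missed were those without siNC replicate 2 or 3 (0.0888 and 0.116). Others left out siSHMT2 replicate 1, 2 or 3 (0.137, 0.177 and 0.0949), used the replicate block (0.108) or used no filter (0.174). Chains that can stand in for the third chain were hardly measured: COL6A5 had reads in 1 library (0.00663 FPKM), and COL6A6 had none, which allows up to 0.0213 FPKM at 3 counts.

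COL6A2 and COL6A3 lie on different chromosomes. Their promoters are shown because both transcripts were lower in every siSHMT2 library than in any siNC library. This held for 7 of the 17 tested chains, these included, and for 18.6% of all genes tested. A link between the promoters and the levels was not tested. Each RefSeq window (GRCh38.p14) runs 5′ to 3′ on the gene's strand from 250 bases before to 50 after a start. Capitals mark the GC box GGGCGG, the CCAAT box CCAAT and the TATA box TATAAA on either strand, without overlaps in these windows. The COL6A2 window is chr21:46097862-46098161, plus strand, and the COL6A3 window chr2:237414115-237414414, minus strand.
COL6A2: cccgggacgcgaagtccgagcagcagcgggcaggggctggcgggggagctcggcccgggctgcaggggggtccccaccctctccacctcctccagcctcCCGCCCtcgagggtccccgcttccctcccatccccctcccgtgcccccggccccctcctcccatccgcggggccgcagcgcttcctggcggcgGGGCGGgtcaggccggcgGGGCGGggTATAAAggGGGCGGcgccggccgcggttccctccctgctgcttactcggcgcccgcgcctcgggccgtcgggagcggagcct
COL6A3: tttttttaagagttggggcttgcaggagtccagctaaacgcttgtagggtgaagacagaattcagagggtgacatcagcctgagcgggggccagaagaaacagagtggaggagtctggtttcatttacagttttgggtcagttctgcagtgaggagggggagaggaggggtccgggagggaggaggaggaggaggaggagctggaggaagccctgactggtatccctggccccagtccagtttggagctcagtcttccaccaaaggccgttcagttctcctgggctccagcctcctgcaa
The COL6A2 window held 4 GC boxes and 1 TATA box and was 79.3% GC. The COL6A3 window was 56.3% GC and these letters were not in it. A GC box was found in 45.0% of all 35116 RefSeq promoter windows, a CCAAT box in 34.6% and a TATA box in 11.5%. Windows were found for 11 of the 17 tested chains (not for COL1A1, COL1A2, COL3A1, COL5A2, COL6A1 and COL8A1), 13 windows in all. Of these 13, 10 held a GC box, 3 a CCAAT box and 4 a TATA box. An AP-1 site (TGANTCA, 7.71% of all windows) was in 0 of the 13. A TEAD site (GGAATG, 14.03%) was in 1, that of COL12A1, and an NF-kB site (0.558%) in 1, that of COL7A1. Each was searched on both strands. A match is a description of letters only.

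**Figure D3:**
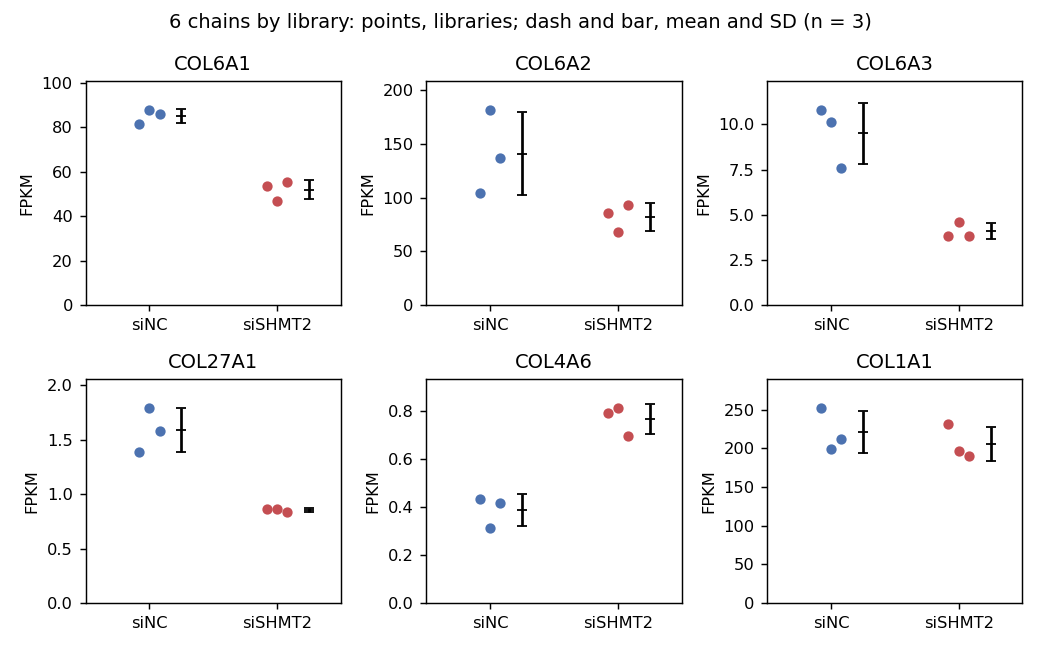
FPKM (linear axes from 0) of 6 chains in each library, with the mean and SD beside the points (n = 3 per group). COL6A1, COL6A2, COL6A3 and COL27A1 sit lower in all siSHMT2 libraries and COL4A6 sits higher, while COL1A1 overlaps.

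Type I collagen is the main fibril former and is made of 2 chains encoded by COL1A1 and 1 encoded by COL1A2. COL1A1 (chromosome 17) was at 252, 199 and 212 FPKM in siNC and at 231, 196 and 190.4 in siSHMT2. The groups overlapped, with a difference of -0.10 and a 95% interval from -0.44 to 0.24 (limma adjusted p = 0.694). COL1A2 (chromosome 7) was at 8.34, 5.75 and 6.25 FPKM in siNC and at 8.26, 8.15 and 7.53 in siSHMT2. Here siNC replicate 1 was the highest of the 6 libraries, and the other siNC libraries lay below all siSHMT2 libraries. Its difference was 0.22, from -0.09 to 0.53 (limma adjusted p = 0.319); without siNC replicate 1 it was 0.36 and passed (0.0486).

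COL3A1, whose type III fibrils are made of this chain alone and form early in scars, was at 7.02, 4.39 and 6.71 FPKM in siNC and at 7.33, 6.44 and 6.23 in siSHMT2. The groups overlapped, siNC replicate 2 being lowest, with a difference of 0.14 and an interval from -0.23 to 0.51 (limma adjusted p = 0.598). The type V chains, which join type I fibrils and limit their width, lay on opposite sides of 0. COL5A1 was at 19.0, 18.4 and 18.1 FPKM in siNC and at 22.1, 19.7 and 19.7 in siSHMT2, the only tested chain with all siSHMT2 libraries above all siNC libraries. Its difference was 0.14, from -0.09 to 0.36 (limma adjusted p = 0.388). COL5A1 overlaps the antisense gene COL5A1-AS1 by 3689 bases, which was at 0.880 ± 0.258 and 0.399 ± 0.249 FPKM (SD, n = 3). COL5A2 was at 24.1, 24.1 and 20.4 FPKM in siNC and at 20.4, 21.1 and 19.2 in siSHMT2, overlapping, with a difference of -0.17, from -0.42 to 0.08 (adjusted p = 0.353).

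COL27A1 (chromosome 9, 114155537 to 114312511, plus strand), a fibrillar chain known mainly from cartilage, was the fibrillar chain that fell. It was at 1.39, 1.79 and 1.58 FPKM in siNC, from 340, 364 and 349 reads, and at 0.864, 0.861 and 0.835 in siSHMT2, from 194, 200 and 185 reads. The siSHMT2 libraries nearly coincided at 53.7% of the siNC mean. COL27A1 fell by 0.48 (SE 0.115, limma adjusted p = 0.0287). The call was lost without siNC replicate 3 (0.0678) or siSHMT2 replicate 1, 2 or 3 (0.108, 0.0959 and 0.106), with the replicate number as a block (0.0833), with TPM (0.0731) and without a filter (0.0889); its difference was -0.61 with TPM and -0.48 to -0.47 in the others. With a pseudocount of 0.1 it was -0.82 and with voom on recovered reads -0.81, both called (0.0340 and 0.00643). The other fibrillar genes were low. COL11A1, which joins type II and type V fibrils, was at 0.289, 0.175 and 0.168 FPKM in siNC and at 0.220, 0.159 and 0.174 in siSHMT2. COL5A3, outside the rule for naming and chosen after its values were seen, had 0, 3 and 1 reads in siNC and 16, 9 and 18 in siSHMT2. COL2A1 and COL24A1 had reads in some libraries, at no more than 0.0257 FPKM, and COL11A2 had none.

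The type IV genes lie in head-to-head pairs, each pair reading outward from a stretch between its start sites. The chains of 1 pair, COL4A1 and COL4A2 (chromosome 13), make the network common to nearly all basement membranes. COL4A2 was at 16.5, 16.6 and 17.9 FPKM in siNC and at 14.8, 13.1 and 13.9 in siSHMT2, with no overlap. Its difference was -0.27, from -0.49 to -0.04 (limma adjusted p = 0.103). COL4A1 was at 4.98, 3.40 and 4.74 FPKM in siNC and at 4.64, 4.53 and 4.31 in siSHMT2, overlapping, with a difference of 0.04, from -0.26 to 0.35 (limma adjusted p = 0.854). In the table these genes overlap by 1346 bases on opposite strands. The strand setting of the counting was not given in the sources, and reads from the overlap cannot be told apart.

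COL4A5 and COL4A6 form such a pair on chromosome X and encode chains of a network found in, among others, smooth muscle basement membranes. COL4A5 was at 1.77, 1.72 and 1.34 FPKM in siNC and at 1.60, 1.64 and 1.60 in siSHMT2, overlapping, with a difference of 0.01, from -0.25 to 0.27 (limma adjusted p = 0.975). COL4A6 lay below the filter, at 0.431, 0.312 and 0.418 FPKM in siNC, from 70, 42 and 61 reads, and at 0.793, 0.812 and 0.695 in siSHMT2, from 118, 125 and 102 reads. Every siSHMT2 library was above every siNC library, with a siSHMT2 mean at 198% of siNC. In the fit to genes with a mean of at least 0.1 FPKM, COL4A6 had a difference of 0.35 (SE 0.0920) and missed the threshold (limma adjusted p = 0.0695), as it did with no filter (0.118). COL4A4 was at 0.0567, 0.171 and 0.0568 FPKM in siNC and at 0.0929, 0.144 and 0.0628 in siSHMT2, and COL4A3 had at most 0.0264.

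The windows of these pairs are shown because the genes of a pair are read from a shared stretch; the difference between partners was not tested. The COL4A2 window, chr13:110307034-110307333 on the plus strand, holds the start sites of both COL4A1 and COL4A2, which are 127 bases apart. A COL4A6 window (chrX:108439409-108439708, minus strand) and the COL4A5 window (chrX:108439588-108439887, plus strand) overlap. Their start sites are 380 bases apart. COL4A6 has another RefSeq window, chrX:108438373-108438672, whose start site is 1416 bases from that of COL4A5. That window held 1 GC box and 0 CCAAT boxes and is not shown. Capitals mark the same boxes as above.
COL4A2: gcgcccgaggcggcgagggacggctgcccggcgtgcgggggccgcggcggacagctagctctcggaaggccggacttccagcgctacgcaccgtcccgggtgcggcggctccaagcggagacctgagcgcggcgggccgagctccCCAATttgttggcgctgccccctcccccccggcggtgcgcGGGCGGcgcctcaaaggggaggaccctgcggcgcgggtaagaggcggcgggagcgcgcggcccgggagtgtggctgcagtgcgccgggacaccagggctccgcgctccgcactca
COL4A6: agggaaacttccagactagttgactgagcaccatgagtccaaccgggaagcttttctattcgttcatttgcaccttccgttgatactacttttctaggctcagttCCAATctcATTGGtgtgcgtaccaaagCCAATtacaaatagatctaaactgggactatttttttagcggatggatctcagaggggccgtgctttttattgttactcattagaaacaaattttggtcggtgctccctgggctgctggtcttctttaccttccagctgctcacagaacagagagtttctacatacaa
COL4A5: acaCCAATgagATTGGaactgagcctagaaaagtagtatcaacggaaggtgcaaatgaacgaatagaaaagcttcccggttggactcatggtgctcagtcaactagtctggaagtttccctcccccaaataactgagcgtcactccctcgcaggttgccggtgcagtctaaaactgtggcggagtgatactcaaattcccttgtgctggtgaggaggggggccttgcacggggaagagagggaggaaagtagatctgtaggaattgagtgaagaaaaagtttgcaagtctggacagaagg
The COL4A2 window held 1 GC box and 1 CCAAT box and was 77.7% GC. The COL4A6 window shown held 3 CCAAT boxes and was 43.7% GC. The COL4A5 window held 2 and was 49.3% GC, both of them bases that the COL4A6 window shown reads from the other strand.

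The chains of the other classes gave no call. COL18A1 (chromosome 21, 45405165 to 45513720), a basement membrane collagen whose end fragment is endostatin, was at 13.9, 18.0 and 13.9 FPKM in siNC and at 11.6, 10.4 and 12.6 in siSHMT2. The groups did not overlap, and its difference was -0.37, from -0.67 to -0.07 (limma adjusted p = 0.0969). It shares 20149 bases with SLC19A1, the reduced folate carrier, which lies on the opposite strand and was at 9.31 ± 1.99 and 6.83 ± 0.871 FPKM (SD, n = 3, limma adjusted p = 0.134). COL13A1, a transmembrane collagen of cell adhesions, was at 2.69, 2.19 and 2.58 FPKM in siNC and at 1.37, 1.64 and 1.92 in siSHMT2, also without overlap. Its difference was -0.40, from -0.68 to -0.12 (limma adjusted p = 0.0620); without siNC replicate 2 it was -0.46 and passed (0.0469).

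COL12A1, which binds the surface of type I fibrils, was at 8.74, 5.42 and 7.10 FPKM in siNC and at 7.42, 8.21 and 6.05 in siSHMT2, with a difference of 0.04 (limma adjusted p = 0.913). COL7A1, which forms the anchoring fibrils of skin, was at 2.71, 3.30 and 3.24 FPKM in siNC and at 2.64, 2.21 and 2.75 in siSHMT2, with a difference of -0.21 (adjusted p = 0.262). COL8A1, a short-chain network collagen of vessels, was at 2.10, 1.38 and 1.82 FPKM in siNC and at 2.38, 2.35 and 1.96 in siSHMT2, with a difference of 0.23 (adjusted p = 0.289). The groups overlapped for these 3 chains, and the intervals ran from -0.36 to 0.43, from -0.47 to 0.05 and from -0.07 to 0.53.

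Below the filter, COL16A1, a fibril-associated chain, was at 0.673, 1.03 and 0.803 FPKM in siNC and at 0.795, 0.782 and 0.984 in siSHMT2. COL17A1, the transmembrane collagen of hemidesmosomes, was at 0.327, 0.632 and 0.364 FPKM in siNC and at 0.455, 0.449 and 0.597 in siSHMT2. COL9A2, a fibril-associated chain of cartilage, was at 0.122, 0.0164 and 0.362 FPKM in siNC, the middle value from 1 read, and at 0.400, 0.200 and 0.210 in siSHMT2. The groups overlapped for all 3. The 12 remaining chains with reads, COL5A3 among them, had at most 18 reads in a library and at most 0.168 FPKM. They include COL15A1, COL8A2, COL25A1, COL9A3, COL10A1, COL28A1 and COL20A1. The 9 chains without a read were COL6A6, COL11A2, COL26A1, COL23A1, COL9A1, COL14A1, COL19A1, COL21A1 and COL22A1. For these, 3 counts in the library with the lowest scaling total correspond to 0.0188 to 0.0668 FPKM, depending on gene length; limits of this kind cover counting error only.

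The type VI share of the collagen transcripts was lower in every siSHMT2 library than in any siNC library, while the fibrillar shares overlapped. Added over all 44 chains, collagen FPKM was 564, 587 and 550.0 in siNC and 483, 419 and 444 in siSHMT2. The sums did not overlap between groups. The type VI share of this sum was 34.9%, 47.5% and 41.8% in siNC and 29.6%, 28.5% and 34.2% in siSHMT2, with the highest siSHMT2 library just under the lowest siNC library. The fibrillar share was 55.4%, 43.3% and 48.2% in siNC and 60.2%, 60.3% and 55.0% in siSHMT2. There siNC replicate 1 and siSHMT2 replicate 3 overlapped. Type IV made up 4.14% ± 0.341 in siNC and 4.68% ± 0.146 in siSHMT2 (SD, n = 3), higher without overlap. Its summed FPKM was lower without overlap, at 23.5 ± 1.18 and 20.9 ± 0.928. The share of the other classes was higher without overlap, at 5.52% ± 0.0461 and 6.02% ± 0.351. Shares of 1 sum depend on each other, so a fall in 1 class raises the shares of the rest. COL1A1 and COL6A2 carry most of the sum over all 44 chains, so the shares follow those chains, and no test was made of the shares.

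**Figure D4:**
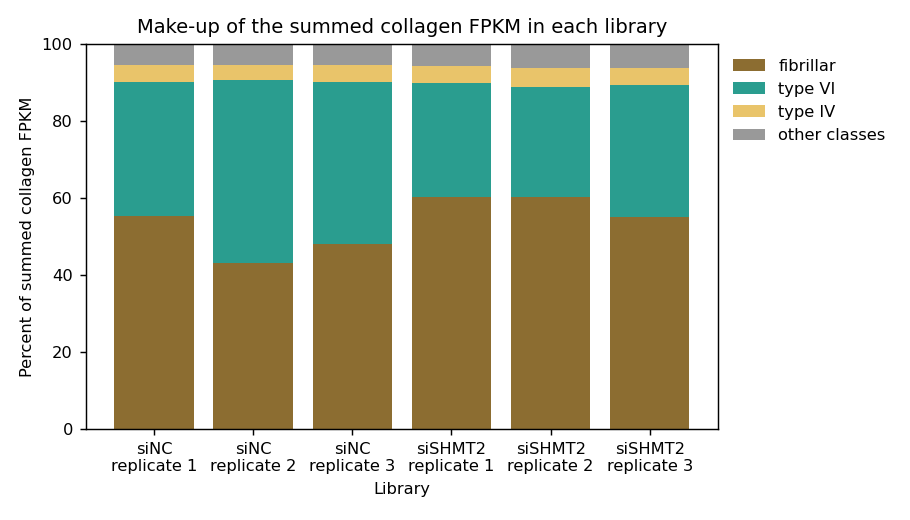
Percent of the summed FPKM of all 44 collagen chains held by fibrillar, type VI, type IV and other chains, as stacked bars for each library. The type VI band is 34.9% to 47.5% in the siNC libraries and 28.5% to 34.2% in the siSHMT2 libraries.

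Many collagen mRNAs carry a match to the seed of miR-29, a microRNA family known to repress collagens in stellate cells. The family's mature sequences (RefSeq) share a seed, bases 2 to 8, in capitals.
hsa-miR-29a-3p: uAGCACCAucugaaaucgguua
hsa-miR-29b-3p: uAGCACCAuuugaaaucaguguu
hsa-miR-29c-3p: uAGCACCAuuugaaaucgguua
The match TGGTGCT stood in the 3′ UTR of 13 of the 17 tested chains (76.5%), taken from the GENCODE transcript with the longest coding sequence, and in 13.8% of 9125 tested genes searched in this way. COL6A1, COL18A1, COL12A1 and COL13A1 had none. Sites with 8 bases on either side are given for the chain that fell most, for COL1A1, whose groups overlapped, and for the other chain with a call and a match, the match in capitals.
COL6A3: tatcagtaTGGTGCTaatgtgtc
COL1A1: ggaatcacTGGTGCTatagaaat
COL27A1: gaaatcgcTGGTGCTcacaattg
They lie at chr2:237324594-237324616 and chr17:50184565-50184587 on the minus strand and at chr9:114311292-114311314 on the plus strand (GRCh38). Chains with the match had differences from -1.04 (COL6A3) to 0.23 (COL8A1), and those without it from -0.70 (COL6A1) to 0.04 (COL12A1). The microRNAs themselves were not analysed here.

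COL6A3 also holds the word GACTTTA in its 3′ UTR, at chr2:237324349-237324371 on the minus strand.
COL6A3: ttaagcatGACTTTAgatgggaa
This word and ACTTTAA were chosen on the fold changes of these libraries, so their presence is no independent evidence. GACTTTA or ACTTTAA was found in 3 of the 17 tested chains (17.6%) and in 21.7% of the 9125 genes searched. The other chains, COL8A1 and COL4A5, hold ACTTTAA and had differences of 0.23 and 0.01, neither called.

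Among genes that fold, cut, bind and degrade collagen, 40 were tested over 5 lists, and 8 fell and 2 rose (20% and 5%, against 9.85% and 6.07% of all genes tested). The lists were chosen with earlier results of these data known, so these shares describe the listed genes and support nothing further. The calls among receptors, proteases and fibril-binding proteins were all lower. Procollagen is hydroxylated and folded in the endoplasmic reticulum before export. Of 22 genes in that list, 18 were tested, 2 rose and 2 fell, with a median of -0.07. SERPINH1, the collagen chaperone Hsp47, was at 39.5, 45.5 and 43.2 FPKM in siNC and at 61.8, 58.5 and 61.8 in siSHMT2. SERPINH1 rose by 0.50 (SE 0.106, limma adjusted p = 0.0185), with all siSHMT2 libraries above all siNC libraries. The call was lost without siSHMT2 replicate 1, 2 or 3 (0.105, 0.0675 and 0.0921) and with the replicate block (0.0728), where the difference was 0.49 to 0.52. KLHL12, a ubiquitin ligase adaptor for large collagen carriers, rose by 0.53 (adjusted p = 0.00778). The prolyl hydroxylase family member P3H3 and the lysyl hydroxylase PLOD2 fell by 0.76 and 0.60 (limma adjusted p = 0.0151 and 0.0240). P3H3 lost its call when siNC replicate 3 (0.0516) or siSHMT2 replicate 1 or 2 (0.0669 and 0.0648) was left out and without a filter (0.0659). PLOD2 lost it when siSHMT2 replicate 1 or 3 was left out (0.102 and 0.101), with TPM (0.127), with FPKM from read sums (0.0753) and without a filter (0.0818).

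Of 13 genes for propeptide cleavage and crosslinking, among them BMP1 and LOX, 6 were tested and 0 passed (limma; median 0.00, and all overlapped between groups). Of 13 collagen receptor and uptake genes, 7 were tested, 3 fell (against 9.85% of all genes) and 0 rose (median -0.37). ITGB1, the integrin beta chain shared by the collagen-binding integrins, fell from 43.2 ± 12.8 to 14.3 ± 1.88 FPKM (SD, n = 3, limma adjusted p = 0.00266). ITGA2, its partner for fibrillar collagen, fell from 3.53 ± 0.462 to 1.55 ± 0.271 FPKM (SD, n = 3, limma adjusted p = 0.00473), and both calls held in every alternative. ANTXR2, which takes up type VI collagen, fell by 0.37 (limma adjusted p = 0.0277); leaving out siNC replicate 3 (0.0630) or siSHMT2 replicate 1, 2 or 3 (0.140, 0.112 and 0.0714) ended the call, as did TPM (0.156), FPKM from read sums (0.0856), voom on recovered reads (0.0633), the replicate block (0.0838) and no filter (0.0586).

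Of 9 collagen-cleaving proteases, 5 were tested, 2 fell and 0 rose, against 9.85% and 6.07% of all genes tested. The median difference of the 5 was -0.28. MMP1, the collagenase that cuts fibrils of types I and III, was at 135, 361 and 205 FPKM in siNC and at 69.7, 77.0 and 77.4 in siSHMT2. The siNC libraries differed widely among themselves, and all lay above the siSHMT2 libraries. MMP1 fell by 1.52 (SE 0.314, limma adjusted p = 0.0166), and the call was lost without siSHMT2 replicate 1, 2 or 3 (0.0662, 0.0547 and 0.0532) and without a filter (0.0871). MMP3, stromelysin, was at 13.3, 39.6 and 14.3 FPKM in siNC and at 6.70, 7.87 and 7.88 in siSHMT2, with siNC replicate 2 far above the rest. MMP3 fell by 1.29 (limma adjusted p = 0.0486), and by 0.80 without siNC replicate 2 (0.00469). The call ended when siNC replicate 3 (0.0595) or siSHMT2 replicate 1, 2 or 3 (0.146, 0.117 and 0.112) was left out, at a mean of at least 0.1 FPKM (0.0947), with no filter (0.189) and with no variance trend (0.0531). Of 10 fibril-binding proteins, 4 were tested and 1 fell, against 9.85% of all genes tested. This was thrombospondin THBS1, which fell by 0.83 (limma adjusted p = 0.0374). THBS1 lost its call without siNC replicate 3 (0.0571) and without siSHMT2 replicate 1, 2 or 3 (0.109, 0.0738 and 0.123). The call was also lost with TPM (0.112), FPKM from read sums (0.0818), voom (0.05003), a mean of at least 0.1 FPKM (0.0759) and no filter (0.150). DCN, LUM and BGN, proteoglycans of many fibroblasts, did not exceed 0.171 FPKM.

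**Figure D5:**
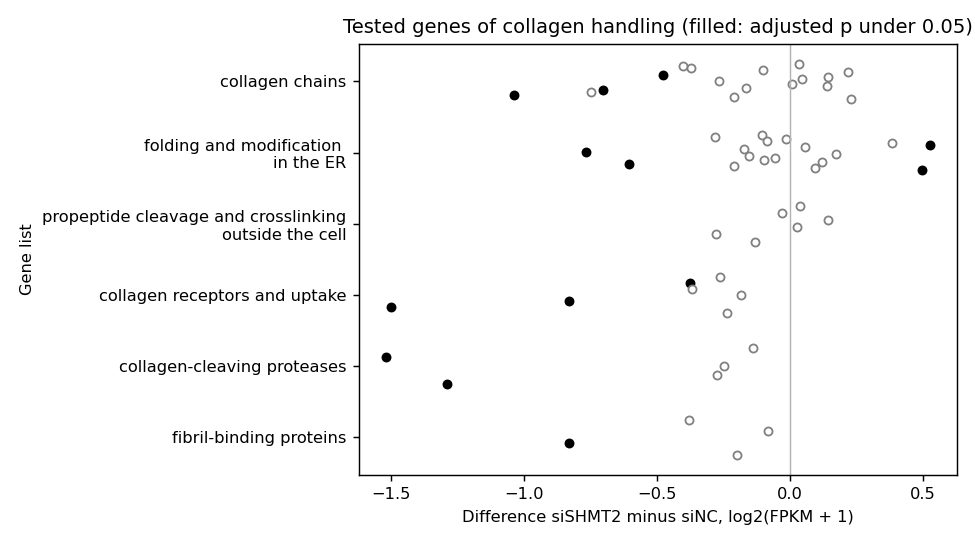
Difference between siSHMT2 and siNC (horizontal axis, log2(FPKM + 1)) of each tested gene in the collagen chain set and in 5 lists of collagen handling; filled points passed the adjusted threshold. SERPINH1 and KLHL12 are the 2 filled points above 0, and all filled receptor, protease and fibril-binding genes lie below 0.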

How the data were processed

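The authors deposited 1 table of FPKM values for 60623 genes in 6 LX2 libraries, with gene coordinates and lengths. The submitters' processing notes name featureCounts 1.5.0-p3, HISAT2 2.0.5 and hg18. The table's coordinates matched GRCh38 instead: all 44 collagen chains overlapped their GENCODE release 29 gene, 26 with identical ends. The lengths deposited are gene lengths in bases. FPKM times length was a whole multiple of 1 step in every library (100% of values above 0, within 0.02), which gave back whole reads. The authors' scaling totals were 0.957 to 1.13 times the read sums; how they were set was not given in the sources.

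Genes averaging at least 1 FPKM were tested with limma 3.58.1 (R 4.3.3) on log2(FPKM + 1), with a variance trend and Benjamini-Hochberg adjustment at 0.05 over all 10865 genes. Classes and gene lists are from general knowledge. The members and lists were chosen with earlier results of these data known. All tested chains are named, and lower chains with at least 10 reads in every library of a group are given by library. The plan was to name up to 4 tested genes of each list by smallest adjusted p. Here only called genes are named by it, and BMP1, LOX, DCN, LUM and BGN are named besides, without a call. The fit was tested on simulated data, with 1 assumed spread for all genes, which the real libraries need not share. It called 27.9% of 1.5-fold, 82.9% of 2-fold and 100% of 4-fold changes, and 0.129% of unchanged genes. Over all 5 draws together 333, 345 and 322 such changes were made, while 1729 genes were called in the real data. The adjustment depends on how many genes change, so these rates need not hold for the real libraries. Alternatives covered pseudocount, filter, scaling, biotype, moderation, library weights, a replicate block, voom on recovered reads and each library left out; FPKM from read sums was added after seeing the data.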

Additional observations from a re-analysis of the deposited data

How the results depend on the processing

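COL6A3, COL6A1 and SHMT2 kept their direction and their call in each of the 18 alternative fits. The count of chains called lower, 3 as reported, was 5 with protein-coding genes only (11.7% of all genes called lower) and 7 with array weights (18.2%), which also called 2 higher, COL1A2 and COL5A1 (16.8%). With each library left out in turn, 2 to 4 chains were called lower (4.58% to 10.4% of all genes) and 0 to 1 higher (2.11% to 6.71%). No difference that changed sign was called in that fit. With array weights COL1A1 was 0.035 and COL4A1 -0.018. Over the fits that left out a library, COL12A1 ran from -0.12 to 0.18, COL3A1 from -0.039 to 0.25, COL4A1 from -0.094 to 0.13 and COL4A5 from -0.068 to 0.053, each lowest without siNC replicate 2 except COL4A5, lowest without siNC replicate 3. The cause was not tested. With TPM the median over all genes was 0.11, and 620 genes were lower and 686 higher, against 1070 and 659; 3 chains were called lower, COL6A2 in place of COL27A1. Deviations from the group means correlated at -0.0183, -0.349 and 0.243 between same-numbered libraries. Between differently numbered libraries they ran from -0.483 to 0.496. With 3 libraries per group, these values cannot decide whether replicate numbers pair the libraries. The replicate block called 2 chains lower and 0 higher (6.41% and 3.44% of all genes).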

Other observations

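Ratios between chains within a library do not depend on the library's scaling. Of 8 such ratios computed, the 6 between partner chains of 1 collagen type are given, as values that were not tested. The ratio of COL1A1 to COL1A2 FPKM was 30.2, 34.6 and 33.9 in siNC and 28.0, 24.1 and 25.3 in siSHMT2, without overlap. The ratio of COL4A2 to COL4A1 was 3.31, 4.87 and 3.77 in siNC and 3.20, 2.90 and 3.21 in siSHMT2. The ratio of COL5A1 to COL5A2 was 0.788, 0.761 and 0.890 in siNC and 1.08, 0.933 and 1.03 in siSHMT2, so that every siSHMT2 library lay above every siNC library. The type VI ratios all overlapped between groups. The ratio of COL6A2 to COL6A1 was 1.29, 2.07 and 1.59 in siNC and 1.60, 1.45 and 1.68 in siSHMT2, that of COL6A1 to COL6A3 7.55, 8.64 and 11.3 and 14.02, 10.2 and 14.4, and that of COL6A2 to COL6A3 9.71, 17.9 and 18.0 and 22.4, 14.8 and 24.2. The size of each ratio rests on the table's gene lengths, which for these chains exceed those of the main coding transcript.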
